A study of Mus musculus with 12 samples.

Results

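The genes described here are 8 genes best known from neurons that were brighter in the atrioventricular canal (AVC) than in the ventricular region of the embryonic mouse heart. They are Gal, Vsnl1, Pvalb, Slc6a4, Nptx2, Eef1a2, Tulp1 and Trnp1, 8 of 19057 genes with a named probe, and each is read from the brightest of its probes (15 of 45281 probes belong to them). They were chosen by their AVC minus ventricle difference in intensity on these same arrays, so that difference is given as a description and was not tested. Total RNA of mouse embryos was labelled as biotinylated cRNA and hybridised to Illumina Mouse WG-6 v2 bead arrays. There were 3 arrays each of the AVC at embryonic day 10 (AVC E10), the AVC at embryonic day 9 (AVC E9), the ventricle at day 10 (LV E10) and the ventricle at day 9 (LV E9). The ventricle is labelled LV, and the protocol calls it the primary ventricle. No group carried a treatment or an engineered allele in the labels, and no strain is named. Nothing says that replicates were separate litters or pools, so p-values here reflect only the spread among these arrays, part of which may be technical.

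The AVC is the constriction between atrium and ventricle whose myocardium conducts slowly and whose endocardium gives rise to the cushions that become valves. Neurons release peptides such as galanin and take serotonin back up through the transporter Slc6a4. Among their EF-hand proteins, parvalbumin buffers calcium and visinin-like proteins sense it. Several of these genes are also used outside the nervous system, and a dissected tissue piece holds every cell type at the site. In tissue RNA, fewer cells of a type and less RNA per cell cannot be told apart.

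The pieces carried the marks of their labels. Of 8 AVC myocardium markers, 5 were called higher in the AVC at E10 and 3 at E9, by limma with Benjamini-Hochberg adjustment, and of 11 chamber myocardium markers 2 were called lower at each age. Rspo3, called at both ages, is among the genes the study itself reported as enriched in its AVC, so it is not an independent mark. Across all genes 2.3% were called in either direction at E10 and 1.02% at E9. For 3 arrays the most similar array lay in another group: AVC E10 replicate 1 and AVC E9 replicate 2 were closest to each other (r = 0.979 across genes), and LV E10 replicate 1 was closest to LV E9 replicate 2 (r = 0.969, against a mean of 0.933 with its own group). Values are intensities on a linear scale with background subtracted, and an intensity is called above background when it exceeds the size of the most negative value of its array, a limit of 22.4 to 29.6. Of the 96 member values, 80 were above background. Intensities of different probes cannot be set against each other as levels.

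Set side by side, the canal was the brighter tissue for all of the genes. The AVC arrays lay above the LV arrays without overlap for 6 of 8 genes at E10 and for 8 of 8 at E9. Among all genes, 13.1% were higher without overlap at E10 and 11.8% at E9, and nothing is read from the comparison because the rule used these arrays. The median log2 difference of the 8 genes was 2.51 at E10 and 2.90 at E9, against 0.07 and 0 over all genes. The medians were 1.57 at E10 and 2.69 at E9 with genes whose LV arrays were all below background (2 of 8 at each age) at the bound of their difference. The smallest differences as fitted were 0.66 for Trnp1 at E10 and 1.61 for Nptx2 at E9. Those of Pvalb at E10 (5.07), Nptx2 at E10 (4.45) and Slc6a4 at E9 (6.56) rest on LV arrays below background, and with values under the background limit set to it they were 3.30, 0.95 and 2.63. Vsnl1, with 2 of 3 LV E10 arrays and all LV E9 arrays above background, differed by 4.90 at E10 and 3.71 at E9.

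**Figure D1:**
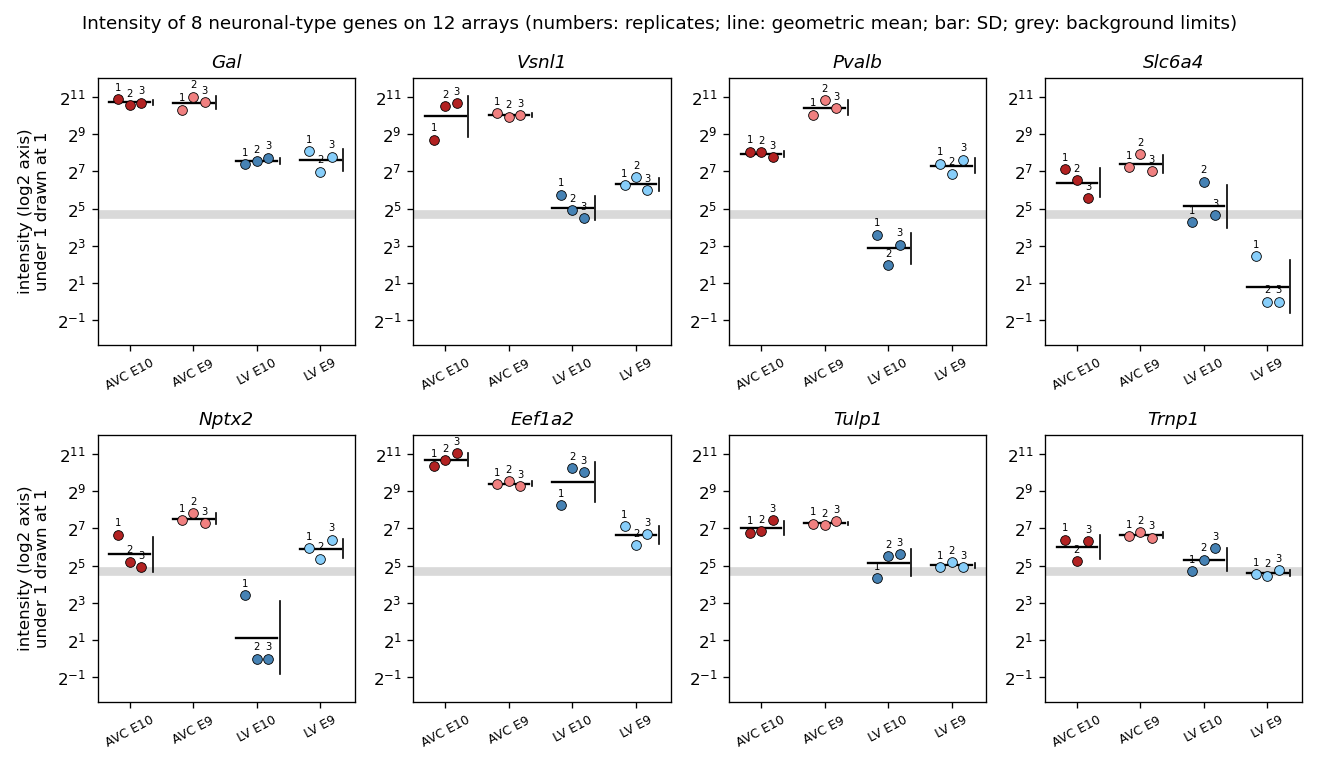
Intensity of the 8 genes on 12 arrays, on a log2 axis with values under 1 drawn at 1. Points are arrays numbered by replicate, lines are geometric means, vertical bars are the SD on the log2 scale (n = 3), and the grey band spans the background limits of 22.4 to 29.6. The AVC groups lie above the LV groups of the same age, with overlap at E10 for Slc6a4 and Trnp1.

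Gal encodes the precursor of galanin, a neuropeptide that acts on the G protein-coupled receptors Galr1, Galr2 and Galr3. It had intensities of 1843, 1503 and 1645 in AVC E10 and 1267, 2044 and 1681 in AVC E9, against 167, 186 and 212 in LV E10 and 271, 125 and 221 in LV E9. All of the AVC arrays were above all of the LV arrays, and within each tissue the ages overlapped. The AVC was 8.86-fold brighter at E10 (log2 difference 3.15) and 8.35-fold brighter at E9 (3.06). The E10 minus E9 difference was 0.02 in the AVC and -0.06 in the LV (SE 0.28 each, limma adjusted p = 1 for both). The tissue differences at the 2 ages were closest together for Gal among the 8 genes, and they differed by less than 1 SE of either. All 3 galanin receptors were below background on all 12 arrays.

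Promoter sequences from RefSeq (GRCm38.p6) were on hand for 7 of the 8 genes. The 250 bases before the start site are printed here for 4 of them, chosen to span the patterns: Gal (steady with age), Pvalb (lower at E10), Eef1a2 (higher at E10) and Slc6a4 (below background on every LV E9 array). Capitals mark matches on either strand to any of 7 motifs. These were the TATA box (TATAAA), the cAMP response element (TGACGTCA), the half-site of that element (TGACG, whose matches overlap those of the whole element), and the T-box half-site (AGGTGT). The others were the left part (TTCAGCACC) and the right part (GGACAG) of the RE1 element, to which the repressor of neuronal genes REST binds, and a GC element known from BMP-responsive genes (GGCGCC). Gal lies on the minus strand with this window at chr19:3414545-3414794.
Gal: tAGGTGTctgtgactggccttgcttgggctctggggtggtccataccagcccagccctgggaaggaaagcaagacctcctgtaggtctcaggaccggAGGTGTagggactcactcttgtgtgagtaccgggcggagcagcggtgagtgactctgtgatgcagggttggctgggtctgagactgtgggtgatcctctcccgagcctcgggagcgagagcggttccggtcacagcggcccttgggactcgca
Pvalb lies on the minus strand, with the window of its first listed start site at chr15:78206401-78206650.
Pvalb: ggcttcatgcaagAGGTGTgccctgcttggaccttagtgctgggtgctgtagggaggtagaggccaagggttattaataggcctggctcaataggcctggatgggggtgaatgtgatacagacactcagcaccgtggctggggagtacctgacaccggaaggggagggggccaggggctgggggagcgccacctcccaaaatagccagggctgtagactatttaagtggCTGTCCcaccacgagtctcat
Eef1a2 lies on the minus strand with this window at chr2:181157016-181157265.
Eef1a2: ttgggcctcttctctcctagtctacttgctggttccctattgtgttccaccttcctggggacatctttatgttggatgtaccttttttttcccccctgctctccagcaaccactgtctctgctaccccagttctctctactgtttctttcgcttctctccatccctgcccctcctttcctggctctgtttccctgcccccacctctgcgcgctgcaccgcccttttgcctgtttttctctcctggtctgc
Slc6a4 lies on the plus strand with this window at chr11:76998347-76998596.
Slc6a4: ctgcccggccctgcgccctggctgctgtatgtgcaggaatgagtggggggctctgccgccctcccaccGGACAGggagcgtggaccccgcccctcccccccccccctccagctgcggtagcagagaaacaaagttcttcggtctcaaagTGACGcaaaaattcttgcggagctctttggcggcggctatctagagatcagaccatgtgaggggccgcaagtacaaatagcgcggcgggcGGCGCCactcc

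The T-box half-site occurred 2 times in the Gal window, at -249 and -153, and 1 time in the Pvalb window, at -237. Over all 32851 promoters of the table, 11.8% hold that motif in a window of the same length. The right part of RE1 was present in the Pvalb window at -21, on the other strand, and in the Slc6a4 window at -182, and 18.7% of all promoters hold it. Slc6a4 also had the cAMP half-site at -101 (17.8% of all promoters) and the GC element at -11 (9.59%). The Eef1a2 window had no match, nor did those of Vsnl1 and Tulp1, while Trnp1 had the cAMP half-site at -195, and a second listed start site of Pvalb had the GC element at -49. The TATA box is found in 12.4% of promoters, the whole cAMP element in 1.55% and the left part of RE1 in 0.301%, and no member window held any of them. A match describes letters only.

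Of the calcium-binding members, Vsnl1 encodes visinin-like protein 1, a neuronal calcium sensor that binds membranes when calcium rises. Its intensities were 412, 1431 and 1602 in AVC E10 and 1099, 968 and 1037 in AVC E9, against 53.6, 29.9 and 22.2 in LV E10 and 76.4, 102 and 63.4 in LV E9. Replicate 1 of AVC E10 was the lowest AVC array. The AVC was 29.8-fold brighter at E10, or 46.0-fold without that array, and 13.1-fold at E9. The E10 minus E9 difference was -0.07 in the AVC (adjusted p = 1) and -1.27 in the LV (SE 0.52, adjusted p = 0.227), where all 3 E10 arrays were below all 3 E9 arrays. With the 3 arrays that resembled another group left out, a choice made after seeing the data, the LV difference was -1.62 with an adjusted p of 0.00816. The tissue by age interaction of Vsnl1 was 1.19 (SE 0.74, adjusted p = 0.937).

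Pvalb encodes parvalbumin, an EF-hand calcium buffer of fast muscle fibres and of a class of inhibitory neurons, and it fell at E10 in both tissues. It measured 264, 261 and 217 in AVC E10 and 1052, 1795 and 1343 in AVC E9, against 12.1, 3.87 and 8.39 in LV E10 and 169, 116 and 196 in LV E9. The 4 groups did not overlap, and all LV E10 arrays were below background. In the AVC the log2 difference E10 minus E9 was -2.47 (SE 0.40, adjusted p = 0.0457) and in the LV it was -4.42 (SE 0.40, adjusted p = 0.00396). Because LV E10 was not above background, LV E10 was at least 6.28-fold lower than LV E9, and the AVC was at least 9.86-fold brighter than the LV at E10. Averaged over both tissues Pvalb fell by 3.45 on the log2 scale (SE 0.28, adjusted p = 0.00136). The interaction was 1.96 (SE 0.57, unadjusted p = 0.0082, adjusted p = 0.701), a size that rests on LV E10 values below background: it was 0.83 with values under 16 set to 16 (unadjusted p = 0.0332) and 0.18 with the background limit as floor (unadjusted p = 0.571). The LV and averaged calls held with each of the 12 arrays left out in turn. The AVC call did not: it was kept without AVC E10 replicate 1, LV E10 replicate 1 or LV E10 replicate 2 and lost in the other 9 fits (0.0653 to 0.179).

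Slc6a4 encodes the sodium-dependent transporter that clears serotonin from the extracellular space. Its intensities were 138, 90.8 and 47.1 in AVC E10 and 148, 243 and 127 in AVC E9, against 19.5, 86.6 and 25.0 in LV E10 and 5.41, -0.537 and -0.679 in LV E9. At E9 the tissues were apart, with all LV arrays below background, and the AVC was at least 6.19-fold brighter. At E10 the ranges overlapped, because replicate 2 of LV E10 lay above replicate 3 of AVC E10. In the AVC the E10 minus E9 difference was -0.99 (SE 0.81, adjusted p = 0.725). In the LV, Slc6a4 rose by 4.31 on the log2 scale (SE 0.81, adjusted p = 0.0402), a size set by the floor of 1 under the LV E9 values, and the bound is at least 1.30-fold higher, with 2 of the 3 LV E10 arrays above background. The bound rests on LV E10 replicate 2, and without that array it is under 1 and no fold can be given. The fitted LV difference was 3.65 without LV E10 replicate 2 and 5.12 without LV E9 replicate 1. With values under 16 set to 16 the LV difference was 1.12 (adjusted p = 0.412), and with the mean over its 2 probes the adjusted p was 0.198. The LV call was kept without AVC E10 replicate 1, AVC E9 replicate 2, LV E10 replicate 1 or LV E9 replicate 1 and lost in the other 8 fits (0.0582 to 0.138). The interaction was -5.30 (SE 1.14, unadjusted p = 0.00147, adjusted p = 0.469), and with the background limit as floor it was -1.56 (unadjusted p = 0.0338).

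Nptx2 encodes neuronal pentraxin 2, a secreted protein that gathers AMPA-type glutamate receptors at synapses. It measured 101, 36.8 and 30.0 in AVC E10 and 173, 227 and 153 in AVC E9, against 10.7, -2.48 and -0.176 in LV E10 and 61.1, 41.4 and 83.6 in LV E9. AVC E9 was above the other groups, LV E9 overlapped AVC E10, and LV E10 was below background on all 3 arrays. The AVC was at least 1.93-fold brighter than the LV at E10 and 3.05-fold brighter at E9. Averaged over both tissues Nptx2 fell by 3.34 on the log2 scale (SE 0.63, adjusted p = 0.0203). In the LV alone it fell by 4.76 (SE 0.90, adjusted p = 0.0404), at least 2.38-fold, and in the AVC the difference was -1.92 (SE 0.90, adjusted p = 0.44). The size in the LV, which also enters the averaged fall, is set by the floor of 1 and was -5.90 without LV E10 replicate 1. The LV call was kept without AVC E10 replicate 1, AVC E9 replicate 2 or LV E10 replicate 1 and lost in the other 9 fits (0.0580 to 0.144), and with values under 16 set to 16 it was -1.90 (adjusted p = 0.0739). The averaged call was lost without AVC E9 replicate 3, AVC E10 replicate 2, AVC E10 replicate 3, LV E9 replicate 3 or LV E10 replicate 2, at adjusted p of 0.0503 to 0.0581.

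Eef1a2 encodes the isoform of translation elongation factor 1 alpha that takes over from Eef1a1 in mature neurons and muscle, and it was the member that rose at E10 averaged over both tissues. It measured 1314, 1611 and 2105 in AVC E10 and 660, 733 and 608 in AVC E9, against 301, 1181 and 1020 in LV E10 and 139, 68.9 and 102 in LV E9. Within each tissue the E10 arrays were above the E9 arrays, and replicate 1 of LV E10, the array that resembled LV E9, was the lowest of its group. Averaged over both tissues it rose by 2.07 on the log2 scale (SE 0.35, adjusted p = 0.0140), which held with each array left out. In the LV it rose by 2.84 (SE 0.50, adjusted p = 0.0334), and in the AVC the difference was 1.31 (SE 0.50, adjusted p = 0.317). The LV call was kept without AVC E10 replicate 1, AVC E9 replicate 2 or LV E10 replicate 1 and lost in the other 9 fits (0.0517 to 0.121). The LV difference was 3.47 without LV E10 replicate 1. The AVC was 2.31-fold brighter than the LV at E10 (log2 difference 1.21, or 0.58 without that array) and 6.70-fold at E9. A second probe above background on all 12 arrays gave 2.86 in the LV and 1.31 in the AVC for E10 minus E9, and the other remaining probe, above background on 8 arrays, gave 3.47 in the LV and 1.30 in the AVC. The 5 unused probes of Slc6a4, Nptx2, Tulp1 and Trnp1 were above background on no array, apart from 1 of Tulp1 that was above it on 1 array.

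Tulp1 and Trnp1 had no age difference that passed the test in either tissue or on average. Tulp1 encodes a tubby-like protein needed for protein transport in photoreceptors. It measured 108, 116 and 172 in AVC E10 and 151, 144 and 165 in AVC E9, against 20.1, 45.7 and 48.6 in LV E10 and 30.4, 36.2 and 29.9 in LV E9. The tissues did not overlap at either age, and the AVC was 3.65-fold brighter at E10 and 4.77-fold at E9. Trnp1 encodes a nuclear protein that controls the division of neural progenitors in the developing cortex. It measured 83.8, 37.8 and 78.4 in AVC E10 and 95.6, 112 and 89.7 in AVC E9, against 26.1, 39.7 and 60.4 in LV E10 and 23.0, 21.8 and 27.1 in LV E9. LV E9 was not above background, which gives at least 3.68-fold brighter in the AVC at E9, whereas the tissues overlapped at E10 with a log2 difference of 0.66. That difference was 0.15 without the 3 arrays that resembled another group and 1.47 with the mean over its 2 probes, the other of which was above background on no array. The Trnp1 interaction was -1.38 (SE 0.51, unadjusted p = 0.0254, adjusted p = 0.937).

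Counted together, age changed 3 of 8 members when averaged over both tissues (Pvalb and Nptx2 lower, Eef1a2 higher), where 8.1% of all genes were called. As a contrast of group means, this average is orthogonal to the AVC minus LV differences that chose the genes. All contrasts share 1 estimate of each gene's spread from the same arrays, so the choice of genes can still touch its p-values. The averages of Pvalb and Nptx2 also include LV E10 values below background. The count is therefore given as a description beside the share. Within single tissues 1 of 8 was called in the AVC (0.551% of all genes) and 4 of 8 in the LV (2.37%). Each of these shares an arm with the comparison that chose the genes, since a group that is low in the LV at 1 age also widens the tissue difference at that age. The interaction called 0 of 8 by limma (0.0315% of all genes), with 3 of 8 at an unadjusted p under 0.05, against 4.71% of all genes. All 8 members were above background in a group, which many of the 19057 genes were not. Of the 9931 genes that were, adjusted on their own, 201 were called in the AVC, 965 in the LV and 2093 averaged. Each is a larger share than over all genes. With the 3 arrays that resembled another group left out, the counts were 3 in the AVC, 5 in the LV, 3 averaged and 1 in the interaction, while the counts over all genes were 1950, 3938, 4858 and 163 in that order, against 105, 452, 1544 and 6 with all arrays.

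**Figure D2:**
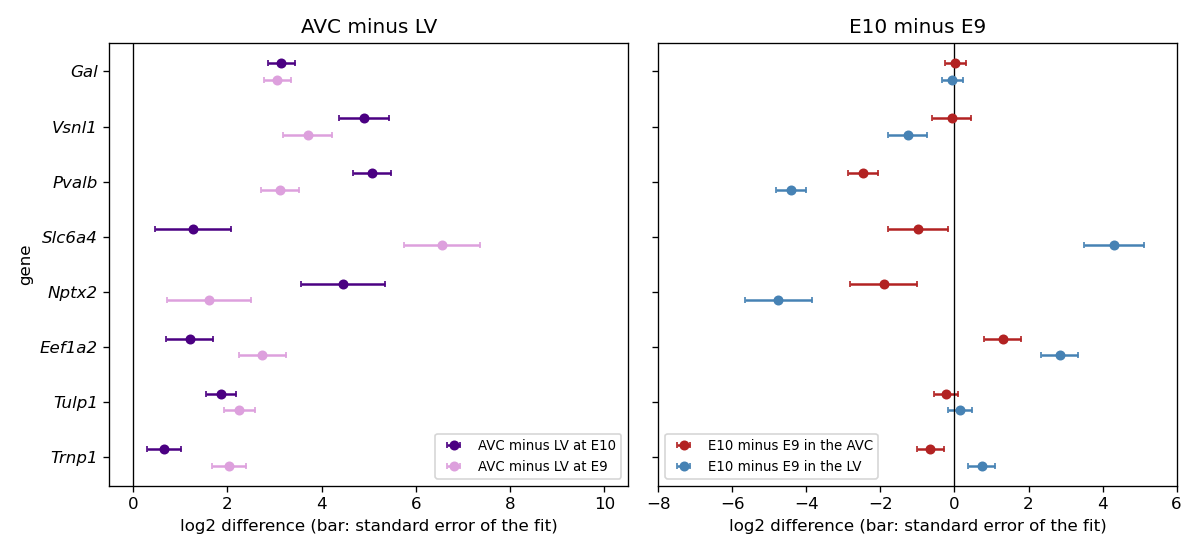
Log2 differences of the 8 genes, AVC minus LV at each age (left) and E10 minus E9 in each tissue (right), with bars for the standard error of the limma fit. Values under 1 were set to 1, so differences of Slc6a4 and Nptx2 against LV groups below background depend on that floor, and those of Pvalb with LV E10 rest on values below background. Eef1a2 lies right of 0 in both tissues, Pvalb and Nptx2 left of it.

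The members differed in pattern among themselves. As a description over the 12 arrays, which share 4 groups, Pearson's r of log2 values was 0.944 between Pvalb and Nptx2, 0.930 between Gal and Tulp1 and 0.917 between Gal and Vsnl1. The lowest was -0.220, between Nptx2 and Eef1a2. The pattern of each gene was also set against 9923 other genes above background in at least 1 group. Those nearest to Gal were Lpar4, a receptor for lysophosphatidic acid (r = 0.979), Stard10, a lipid transfer protein (0.978), and Shisa2, which retains Wnt and FGF receptors inside the cell (0.977). Shisa2 averaged 1158 in AVC E10 and 1129 in AVC E9, against 105 in LV E10 and 150 in LV E9. For Vsnl1 they were the transcription factor Gata3 (0.955), Shisa2 (0.946) and Rmdn2 (0.945).

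The nearest gene to Pvalb was Has2 (0.967), the synthase of the hyaluronan that swells the cushion matrix, followed by the kinase Prkx (0.960) and the protocadherin Pcdha7 (0.958). Has2 averaged 473 in AVC E10 and 979 in AVC E9, against 64.6 in LV E10 and 268 in LV E9, in the same order of groups as Pvalb. Nptx2 was nearest to Ahsa2 (0.974), Ganab (0.971) and Prkx (0.969). Eef1a2 lay nearest to Mtmr11 (0.984), the complement inhibitor Serping1 (0.977) and the matrix protease Mmp11 (0.977). Slc6a4 was nearest to Tg (0.949), Rap1gap2 (0.938) and the cation exporter Slc47a1 (0.929). Tulp1 was nearest to Nudt11 (0.970), the ubiquitin hydrolase Uchl1, which is abundant in neurons (0.962), and the pseudogene Bambi-ps1 (0.955), and Trnp1 to the ciliary gene Bbs9 (0.969), the phosphatase Dusp4 (0.935) and the kinase Fer (0.933).

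The wider families of these genes were mostly dim. Of 70 measured relatives in 6 families, 24 were above background in at least 1 group and 38 on no array. In AVC against LV, 0 of 70 were called by limma at E10 (2.3% of all genes) and 1 of 70 at E9 (1.02% of all genes). At an unadjusted p under 0.05 there were 12 of 70 at E10, where 13.9% of all genes were. The median difference of the relatives was 0 at both ages, a value the floor of 1 gives to many genes above background on no array. Among relatives above background in a group, the E10 medians were 2.94 (neuropeptides), 0.62 (calcium sensors), 0.15 (serotonin), 0.93 (pentraxins), 0.63 (tubby) and -0.15 (elongation factors). At E9 they were 1.18, 0.34, -0.03, -0.87, 0.12 and -0.11 in that order. The 1 called gene was Maob, a mitochondrial enzyme that breaks down amines, with intensities of 156, 212 and 124 in AVC E9 against 77.1, 77.6 and 68.3 in LV E9 (log2 difference 1.11, adjusted p = 0.0339). The count at E9 was 0 without AVC E10 replicate 2 or 3, AVC E9 replicate 1, LV E10 replicate 2 or 3, or any of the LV E9 replicates.

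Around Slc6a4, the other steps of serotonin handling were uneven. Tph1 and Tph2, the enzymes that start serotonin synthesis, were below background on all 12 arrays, and 16 of 20 measured genes of the list were above background on none. Ddc, which makes serotonin from its precursor and also makes dopamine, had 1356, 536 and 728 in AVC E10 and 970, 1150 and 809 in AVC E9, against 636, 1538 and 1570 in LV E10 and 1119, 805 and 945 in LV E9, so its tissues overlapped at both ages. Slc18a2, the vesicular amine transporter, averaged 39.2 ± 17.6 in AVC E10 and 36.4 ± 18.3 in AVC E9, against 17.5 ± 8.52 in LV E10 and 57.3 ± 7.29 in LV E9 (SD, n = 3).

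Among 14 measured neuropeptides and galanin receptors, 3 were above background on all arrays of a group: Cck, Nts and Pdyn, the prodynorphin gene, which averaged 28.4 ± 2.45 in AVC E10 against 32.7 ± 8.97 in LV E10. Cck, the cholecystokinin precursor, measured 202, 18.6 and 29.5 in AVC E10 and 522, 633 and 533 in AVC E9, against 28.1, -7.77 and -0.917 in LV E10 and 385, 121 and 325 in LV E9. E10 arrays lay below E9 arrays in the LV, and the log2 difference there was -6.34 (adjusted p = 0.0543). All LV E10 arrays of Cck were below background, and the floor of 1 sets that size. Npy averaged 92.3 ± 101 in AVC E10 and 9.53 ± 9.73 in AVC E9, against 48.5 ± 63.8 in LV E10, with replicate 2 the highest of both E10 groups, and in LV E9 it measured 17.0, 34.1 and -3.12. Nts, the neurotensin precursor, measured 30.3, 68.4 and 116 in AVC E10 against 2.68, 13.6 and 14.6 in LV E10, all of the latter below background (2.94, adjusted p = 0.118).

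Of 16 measured calcium sensors and EF-hand relatives, 5 were above background in a group. Ncald, a neuronal calcium sensor like Vsnl1, measured 62.5, 184 and 180 in AVC E10 against 18.9, 25.9 and 27.4 in LV E10, a log2 difference of 2.43 whose adjusted p of 0.0519 missed the threshold. As for Vsnl1, replicate 1 was the lowest of the AVC E10 arrays. Hpcal1, another sensor of the family, averaged 111 ± 33.9 in AVC E10 and 94.5 ± 19.8 in AVC E9, against 102 ± 9.83 in LV E10 and 141 ± 48.6 in LV E9, with overlap at both ages.

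Among 9 pentraxins and AMPA receptor subunits, 2 were above background in a group. Ptx3, a soluble pentraxin of innate immunity and matrix, measured 96.4, 245 and 209 in AVC E10 and 39.0, 16.6 and 24.5 in AVC E9, and rose by 2.76 (adjusted p = 0.0479). In the LV it measured 50.8, 65.5 and 83.8 at E10 and 21.4, 17.8 and 10.3 at E9 (2.05, adjusted p = 0.0583). The AMPA receptor subunit Gria3 measured 74.4, 142 and 132 in AVC E10 and 20.1, -0.481 and 18.9 in AVC E9, a difference of 3.94 (adjusted p = 0.141), opposite in sign to that of Nptx2. All AVC E9 arrays of Gria3 were below background, so the size depends on the floor of 1. All 7 elongation factors were above background on all 12 arrays, and Eef1a1 averaged 30922 ± 6850 in AVC E10 and 29830 ± 4252 in AVC E9, against 33582 ± 6596 in LV E10 and 37282 ± 4040 in LV E9. Its E10 minus E9 difference was 0.04 in the AVC (adjusted p = 1) and -0.16 in the LV (adjusted p = 0.735), beside the 1.31 and 2.84 of Eef1a2. The tubby relative Tulp4 averaged 887 ± 45.4 in AVC E10 and 887 ± 381 in AVC E9, against 536 ± 120 in LV E10 and 632 ± 134 in LV E9, and none of the 4 measured tubby relatives was called between tissues.

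**Figure D3:**
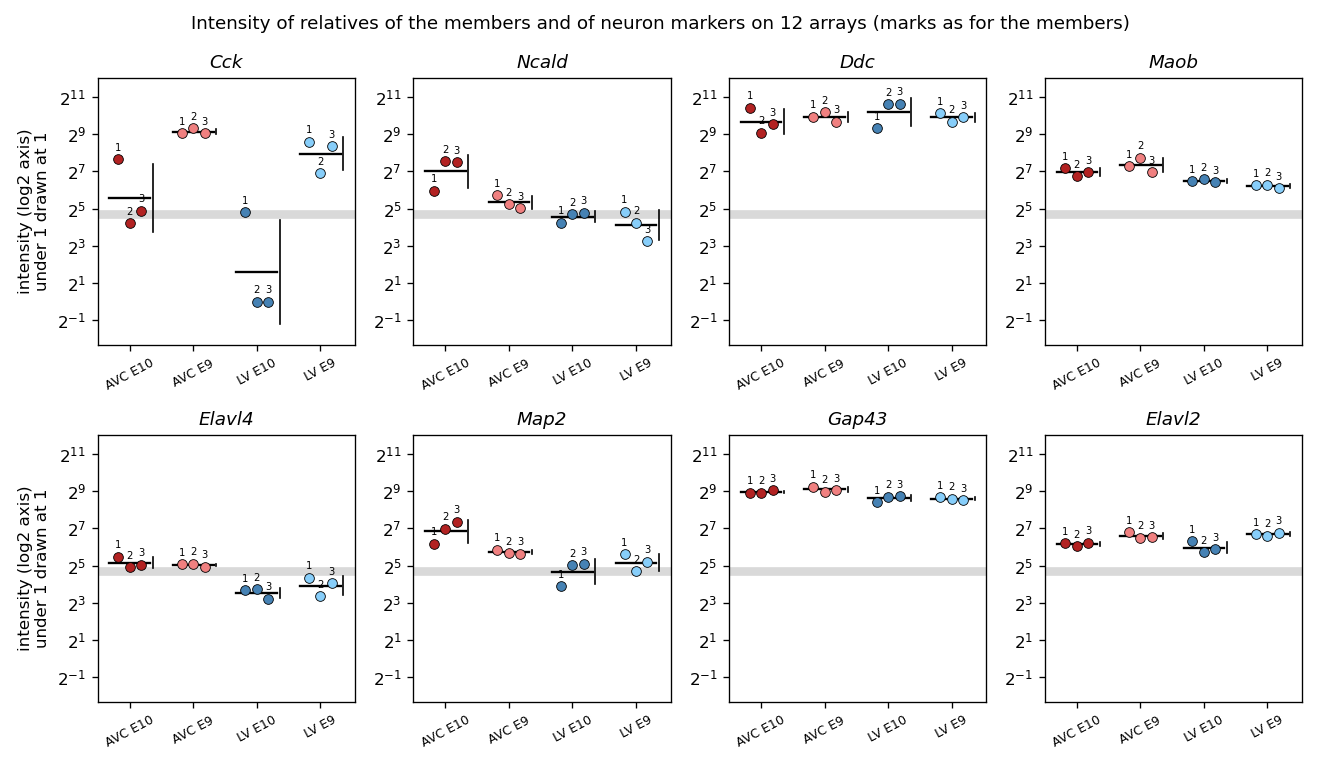
Intensity of 4 relatives (Cck, Ncald, Ddc, Maob) and 4 neuron markers (Elavl4, Map2, Gap43, Elavl2) on 12 arrays, on a log2 axis with values under 1 drawn at 1. Points are arrays numbered by replicate, lines geometric means, vertical bars the SD on the log2 scale (n = 3), and the grey band the background limits. Elavl4 and Map2 lie higher in AVC E10 than in LV E10, while Ddc and Elavl2 overlap between tissues at both ages.

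Most general neuron markers were not above background throughout any group. Of 20 measured, 8 were above background on all arrays of a group, and Elavl3, Snap25, Syn1, Nefl and Prph were above it on no array. Tubb3, the tubulin of young neurons, was above background on no AVC array, but on 2 LV E9 arrays and 1 LV E10 array. Syt1 was above background on all AVC arrays and no LV array. By limma it differed by 3.88 at E10 (adjusted p = 0.170) and 3.12 at E9 (adjusted p = 0.354). Stmn2 was above background on the AVC E10 arrays only (2.81 at E10, adjusted p = 0.201). The 8 markers above background in a group had a median AVC minus LV difference of 1.88 at E10 and 0.83 at E9. The summed intensity of the list was 940 to 1139 in AVC E10 and 934 to 1202 in AVC E9, against 622 to 702 in LV E10 and 671 to 773 in LV E9. At E10, limma called 2 of 20 higher in the AVC (2.3% of all genes were called either way), and at E9 it called 0 of 20 (1.02%). At an unadjusted p under 0.05 there were 7 of 20 at E10 (13.9% of all genes) and 5 of 20 at E9 (11.5%). The called genes were Elavl4, a neuronal RNA-binding protein with 44.5, 30.0 and 33.0 in AVC E10 against 12.7, 13.3 and 9.38 in LV E10, where it was not above background (1.60, adjusted p = 0.0223), and Map2, a dendritic microtubule protein with 71.7, 125 and 162 against 14.8, 32.7 and 34.5 in the same groups (2.15, adjusted p = 0.0377). The count at E10 was 0 without AVC E10 replicate 2 or 3 or LV E10 replicate 2 or 3, 1 without AVC E9 replicate 2 or 3, AVC E10 replicate 1, or LV E9 replicate 1 or 3, 2 without AVC E9 replicate 1 or LV E9 replicate 2, and 3 without LV E10 replicate 1. Gap43, a growth cone protein, averaged 494 ± 25.6 in AVC E10 and 543 ± 54.2 in AVC E9, against 392 ± 44.6 in LV E10 and 383 ± 23.1 in LV E9 (adjusted p = 0.145 at E10 and 0.0631 at E9). Elavl2 averaged 71.4 ± 5.15 in AVC E10 and 97.3 ± 11.6 in AVC E9, against 63.1 ± 13.9 in LV E10 and 103 ± 6.24 in LV E9. The part of neurons in the values of the 8 genes was not tested.

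Other cell types that a canal piece can hold were read from marker lists. Of 8 neural crest and glia markers, 0 were called between tissues by limma at either age. At an unadjusted p under 0.05 there were 3 at E10 (13.9% of all genes) and 0 at E9 (11.5%). In a group, 3 were above background, and Foxd3, Erbb3 and Pax3 were above it on no array. The median AVC minus LV difference of the list was 1.04 at E10 and 0.16 at E9. Sox10 measured 20.2, 41.4 and 47.7 in AVC E10 against -2.23, -0.104 and 4.66 in LV E10 (4.35, adjusted p = 0.0619), a size set by the floor of 1 under the LV E10 values. At E10 Ngfr differed by 2.12 (adjusted p = 0.147) and Ednrb by -0.44. The summed intensity of the list was 2000 to 3637 in AVC E10 and 1169 to 1622 in AVC E9. In the LV it was 2882 to 4056 at E10 and 826 to 1624 at E9, most of it Ednrb. Of 10 sinus venosus and atrial markers, 1 was called higher in the AVC at E10 (Shox2) and 2 at E9 (Nr2f2 and Kcna5), with sums of 50074 to 59123 in AVC E10 and 50607 to 62501 in AVC E9, against 43101 to 48008 in LV E10 and 52824 to 53892 in LV E9. Nearly all of each sum came from Myl4 and Myl7, atrial myosin light chains that the early ventricle also makes, and the median log2 difference of the 10 genes was 1.36 at E10 and 1.96 at E9. Shox2, a pacemaker transcription factor, measured 55.7, 549 and 553 in AVC E10, so replicate 1 was lowest there as it was for Vsnl1 and Ncald. Cushion mesenchyme markers moved with the tissue, 4 of 9 called higher in the AVC at E10 and 3 of 9 at E9, with sums of 7282 to 8217 in AVC E10 and 5000 to 6666 in AVC E9, against 1296 to 2374 in LV E10 and 1585 to 2051 in LV E9. Endoderm and simple epithelium markers had lower sums at E10 in the AVC, beside the lower values of Pvalb and Nptx2, with 1785 to 3029 in AVC E10 and 3760 to 5885 in AVC E9, against 1314 to 4561 in LV E10 and 1995 to 4197 in LV E9. Of 12 measured, 7 were above background in a group, with a median E10 minus E9 difference of -1.35 in the AVC and -1.28 in the LV, and 0 were called by age in either tissue. Epcam, Foxa2 and Shh were among the 4 that were above background on no array. The keratin Krt8 averaged 893 ± 706 in AVC E10 and 2806 ± 782 in AVC E9 (log2 difference -1.89, adjusted p = 0.230), against 697 ± 426 in LV E10 and 1599 ± 635 in LV E9 (-1.28, adjusted p = 0.293). Endocardium and endothelium markers had higher sums at E10, beside the higher values of Eef1a2. The sums were 6037 to 7538 in AVC E10 and 3535 to 4645 in AVC E9, against 5713 to 7280 in LV E10 and 4153 to 4454 in LV E9. The 8 above background in a group had a median E10 minus E9 difference of 0.67 in the AVC and 0.11 in the LV. By age, 0 were called in the AVC and 1 in the LV. In the LV, Emcn averaged 3103 at E10 and 1242 at E9, while Flt1 averaged 402 and 548. The part of these cell types in the results for the 8 genes was not tested.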

How the data were processed

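Bead array values for 12 samples were deposited by the authors as 1 intensity per probe on a linear scale. Every array had the same mean of 386 and 34.7% of values were below 0, so the deposited intensities had been background subtracted and scaled to 1 mean, but not quantile normalized. The program behind them is not stated. For its own comparisons the study used GeneSpring GX and removed signals below background.

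Probes were joined to genes by the platform annotation: 34885 had 1 gene symbol, 18 had several and 10378 had none listed, and the last 2 sets were left out. Each of 19057 genes was read from the probe with the highest mean over 12 arrays. Values under 1 (36.8%) were set to 1 before log2. The 4 group means were fitted with limma 3.58.1 (R 4.3.3) over all probes. Two-sided p-values took the Benjamini-Hochberg adjustment over 19057 genes, contrast by contrast, and calls required an adjusted p below 0.05. On simulated data for 19057 genes in which some were changed between tissues at E9, 52% of changes of size 1 and 92% of size 2 (log2) were recovered. The changed genes were drawn only from brighter genes, with mean values well above the background limit. How far these shares hold for dimmer genes, including those near or below background, was not tested. Intensity means are arithmetic, and folds come from the fitted log2 means. A bound (at least N-fold) sets the bright group's mean against, per array of the dim group, the higher of the lowest signal above background and the gene's own value. The number of arrays limits the precision.

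The members and gene lists were chosen with earlier results of these data known. Named genes were the members, the 3 genes nearest to each by Pearson's r, and of each list the genes called between tissues plus the brightest ones (up to 3 relatives, 2 markers). Pdyn, Tubb3, Syt1, Stmn2 and Sox10 were named outside that rule. So were the galanin receptors, Tph1, Tph2 and several markers above background on no array. Alternatives covered floors of 16 and of the background limit, quantile normalization, median centring, the mean over all probes of a gene, a filter on genes below background, limma-trend, a replicate block and leaving out each array. Promoters came from RefSeq. Python 3.11.15, pandas 2.3.3 and matplotlib 3.10.9 were used for summaries and plots.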

Additional observations from a re-analysis of the deposited data

How the results depend on the processing

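The counts that moved were small. Members called by age in the AVC (1) numbered 2 with values under the background limit set to it, 0 with limma-trend and 3 without the 3 arrays that resembled another group, an alternative chosen after seeing the data. The AVC calls then were Pvalb, Nptx2 and Eef1a2. In the LV (4) they numbered 2 with either higher floor, 16 or the background limit. The interaction (0) had 1 member, Nptx2, without those 3 arrays (3.60), but its value depends on the floor: it was 2.84 as reported, -0.020 with the floor of 16 and -0.66 with the background limit. Relatives called at E10 (0) numbered 2 with the floor of 16, 4 with the background limit, 2 with genes above background only and 7 without the 3 arrays. At E9 (1) they numbered 0 under quantile normalization, median centring and the mean over probes, and 2 without the 3 arrays. Neuron markers called at E10 (2) numbered 4 with the floor of 16, 0 under quantile normalization, 1 under median centring, 1 with the mean over probes and 4 without the 3 arrays. At E9 (0) they numbered 3 with the floor of 16, 2 with the background limit, 1 with genes above background only and 2 without the 3 arrays.

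With each array left out in turn, the counts ran from 0 to 1 (members, AVC), 1 to 4 (members, LV), 2 to 3 (members, averaged), 0 to 0 (interaction), 0 to 2 (relatives, E10), 0 to 1 (relatives, E9), 0 to 3 (neuron markers, E10) and 0 to 2 (neuron markers, E9). The highest count of relatives at E10 and of neuron markers at either age came without LV E10 replicate 1. Median centring placed the median of all genes at -0.14 in AVC against LV at E10, against 0.07 as reported. Over all genes, E10 had 392 higher and 46 lower calls in AVC against LV as reported, 189 and 84 under quantile normalization and 155 and 63 under median centring, and E9 had 163 and 32, against 99 and 52 under quantile normalization. With the background limit as floor all calls numbered 735 at E10 (438 as reported), 370 at E9 (195), 497 by age in the AVC (105) and 964 in the LV (452). With 1 array left out, calls over all genes were fewest without AVC E10 replicate 3 at E10 (97), by age in the AVC (25) and averaged (554), without AVC E9 replicate 1 at E9 (59), and without LV E10 replicate 2 by age in the LV (54). They were most without LV E10 replicate 1 at E10 (730), at E9 (422), by age in the LV (2630) and averaged (3434, against 1544 as reported), and without AVC E10 replicate 1 by age in the AVC (465).

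Replicate numbers paired samples only in part: 9 of 18 same-numbered pairs had correlated deviations over 0.1, from -0.366 to 0.524, and 8 of 12 arrays correlated best with an array of their own number. With the replicate block the members called in the AVC numbered 0, the Pvalb value there keeping -2.47 at an adjusted p of 0.0813. Under the same block relatives at E9 numbered 0 and neuron markers at E10 numbered 1, and the other counts stayed within 1.5 times.

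Differences near 0 changed sign. E10 minus E9 for Gal in the LV was 0.012 under quantile normalization, 0.036 under median centring and 0.020 without the 3 arrays, and averaged it was 0.039, 0.020 and 0.064 in that order. Vsnl1 in the AVC was 0.50 and Tulp1 averaged 0.20 without the 3 arrays. With values under the background limit set to it the averaged difference was 0.046 for Tulp1 and -0.011 for Trnp1. With the mean over probes Tulp1 was 0.092 in the AVC and 0.066 averaged. Leaving out single arrays gave Gal -0.16 to 0.18 in the AVC, -0.39 to 0.17 in the LV and -0.18 to 0.10 averaged, Vsnl1 -0.43 to 0.55 in the AVC, Tulp1 -0.082 to 0.56 in the LV and -0.16 to 0.16 averaged, and Trnp1 -0.11 to 0.23 averaged. The averaged difference of Slc6a4, 1.66 as reported (adjusted p = 0.12), was -0.20 with the background limit, since the floor sets its LV E9 values. The cause of the other reversals was not tested. The AVC call of Pvalb was also lost with limma-trend (adjusted p = 0.0518).

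The choice of floor sets the size of differences against groups below background. At E10 the AVC minus LV difference of Pvalb was 3.95 and that of Nptx2 1.59 with the floor of 16, and at E9 that of Slc6a4 was 3.37. With the mean over probes that of Tulp1 at E9 was 1.46 (2.25 as reported), the other probes being above background on at most 1 array. In the LV, Slc6a4 kept 0.58 (adjusted p = 0.528) and Nptx2 -1.25 (adjusted p = 0.0863) with the background limit. No depth is given for bead arrays, and signal over background limits what can be seen.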

Other observations

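Calb2, the calcium buffer calretinin, measured 19.3, 181 and 186 in AVC E10 and 12.4, -3.78 and 4.29 in AVC E9, against 26.5, 214 and 263 in LV E10 and -2.03, -14.7 and -9.82 in LV E9. In the LV it rose by 6.84 on the log2 scale by limma (adjusted p = 0.0395), a size set by the floor of 1, and replicate 1 was the lowest array in both E10 groups. Calb2 is thus an EF-hand relative that was brighter at E10, where Pvalb was dimmer. Kcnip3, a calcium sensor that binds potassium channels, fell in the LV by 2.85 (adjusted p = 0.0460), with 5.53, 11.4 and 13.0 in LV E10 against 73.2, 55.8 and 75.5 in LV E9. All of its LV E10 arrays were below background, so the size of that fall rests on values below background.

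Rbfox3, the splicing factor known as the neuronal nuclear marker NeuN, measured 21.5, 8.96 and 9.84 in AVC E10 and 189, 71.5 and 197 in AVC E9, against 4.49, -4.51 and -5.65 in LV E10 and 19.6, 31.2 and 22.1 in LV E9. It was above background on all 3 AVC E9 arrays and 1 LV E9 array, and on no E10 array. The E10 minus E9 difference was -3.48 in the AVC (adjusted p = 0.0676) and -3.85 in the LV (adjusted p = 0.0334). Both sizes rest on E10 values below background, and that in the LV on the floor of 1. Kcnip3 and Rbfox3 were chosen after their values were seen.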
